A study of Mus musculus with 6 samples.

Results

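The calcium release and store genes examined here were *Itpr1*, *Itpr2*, *Itpr3*, *Ryr1*, *Ryr2*, *Ryr3*, *Atp2a2*, *Atp2b1*, *Stim1* and *Stim2*. They were chosen by name, and every probe set whose gene symbol was one of these names was taken. This gave 29 of the 45077 probe sets on the array, for 10 of 22527 gene symbols, and all 10 genes were found. Each probe set combines several short probes to the same transcript, and 9 of the 10 genes had more than 1. The RNA came from the cerebral cortex of 6 male mice, with 2 mice in each group. The labels give an age of 16 weeks, and if this was the age at the start, as the methods read, the mice were older when the tissue was taken. SAMR1 mice, from the senescence-resistant strain, were given water and served as the normally aging group. SAMP8 mice, from the senescence-accelerated strain, were given either water (SAMP8 control) or sugarcane top ethanolic extract (STEE-fed SAMP8). After acclimatization STEE was given by mouth at 20 mg/kg for 30 days and on through 8 days of behavioral tests. The water groups had the same 30 days of administration, with water, and the same 8 days of tests. SAMP8 and SAMR1 are separate strains, so that every inherited difference between them enters SAMP8 control vs. SAMR1, and the parts of these differences cannot be told apart.

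Calcium ions are stored in the endoplasmic reticulum and released into the cytosol as a signal. The inositol trisphosphate receptors, encoded by the *Itpr* genes, open when receptors at the cell surface activate phospholipase C. The ryanodine receptors, encoded by the *Ryr* genes, open when cytosolic calcium rises. The pump encoded by *Atp2a2* refills the store, and the pump encoded by *Atp2b1* expels calcium across the plasma membrane. The *Stim1* and *Stim2* proteins sense a drop of calcium inside the store and open channels at the cell surface. In cortical neurons this cycle shapes synaptic plasticity, and in astrocytes *Itpr2* is known as the main receptor for calcium release.

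The deposited tables hold 1 value per group for each probe set, the authors' average of the log2 signal over the mice of that group. No value of a single mouse entered the calculations, so no spread between mice, error or test is given for any difference below. A difference is the log2 mean of 1 group minus that of another, and it was called past the threshold at 1.2-fold, which is 0.26 on the log2 scale. The share of all 45077 probe sets past the same threshold serves as the background. The signal of a probe set depends on its probes, so values were compared between groups within a probe set and not between genes. The median mean log2 signal of all probe sets was 4.15. Of the 29 probe sets of the calcium genes, 21 were at or above this median and 8 were below it. In tissue, fewer cells of a type and less RNA per cell cannot be told apart.

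In SAMP8 control vs. SAMR1, the calcium genes were about as often past 1.2-fold as the rest of the array. One probe set each of *Itpr1* and *Atp2a2* was past the threshold, both higher in SAMP8 control, which is 2 of 29 (6.90%), and the background was 7.11%. Among probe sets at or above the median signal it was 2 of 21 (9.52%) with a background of 11.6%. In the higher direction alone, the background was 3.68% over all probe sets and 6.39% at or above the median signal. The differences ran from -0.21 for a *Ryr3* probe set to 0.39 for an *Itpr1* probe set. Their median was 0.04, and the median of all probe sets was 0.00. Of the 29 probe sets, 19 were higher in SAMP8 control, 9 were lower and 1 was equal to 2 decimals.

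STEE-fed SAMP8 and SAMP8 control differed less. None of the 29 probe sets was past 1.2-fold, and the background was 2.01%, so a count of 0 lies near the background too. The differences ran from -0.15 to 0.15 with a median of -0.01. In this comparison 13 probe sets were higher with STEE, 15 were lower and 1 was equal.

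STEE-fed SAMP8 vs. SAMR1 is the sum of both steps and shares their arrays, and it shows how far the fed mice stood from the normally aging strain. Past 1.2-fold were 3 of 29 probe sets (10.3%), 1 each of *Itpr1*, *Atp2a2* and *Stim1*, all higher in STEE-fed SAMP8, and the background was 7.85%, or 4.60% in the higher direction alone. The differences ran from -0.16 to 0.43 with a median of 0.02. At 1.1-fold, which is 0.14 on the log2 scale, 8 of 29 probe sets were past the threshold between the strains (background 25.9%), 5 with STEE (16.2%) and 9 for STEE-fed SAMP8 vs. SAMR1 (27.6%). Of the last, 8 were higher, where the background was 13.7%, and 1 was lower, where it was 13.9%. All were among the 21 at or above the median signal, where the backgrounds were 22.2% higher and 16.5% lower. The 8 higher ones came from *Itpr1*, *Atp2a2*, *Atp2b1* and *Stim1* only, and probe sets of 1 gene are not independent readings. None was past 1.5-fold in any comparison, with backgrounds of 0.876%, 0.0799% and 1.02%.

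**Figure D1:**
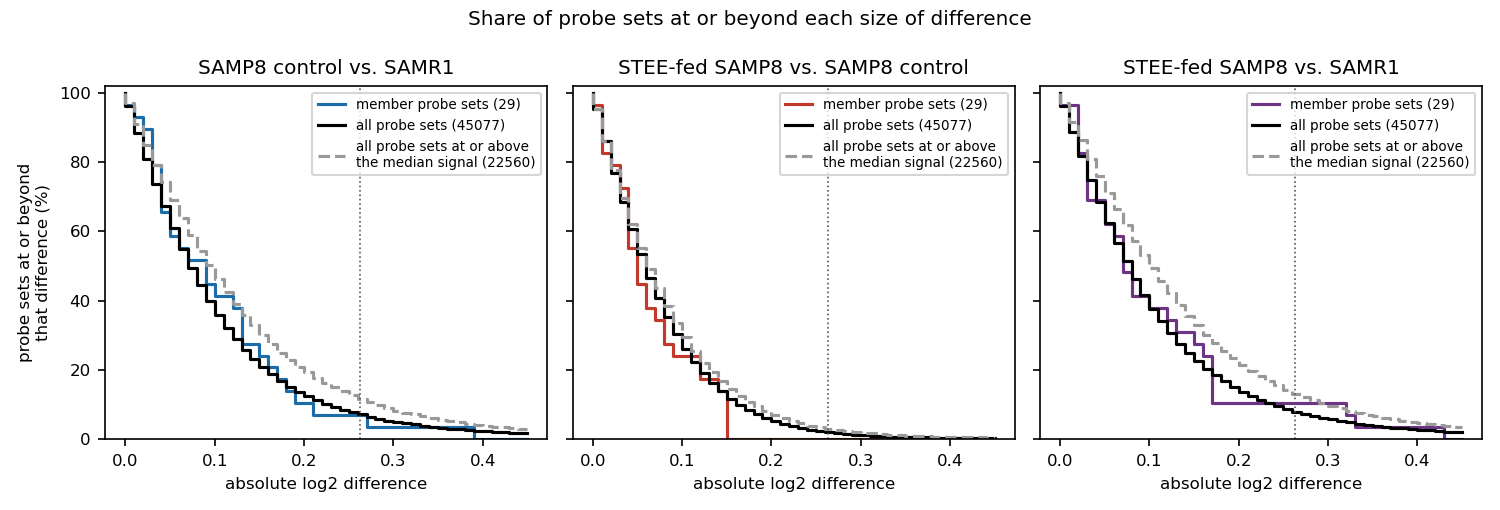
Share of probe sets (vertical axis, percent) whose absolute log2 difference of group means is at or beyond the value on the horizontal axis, for the 29 probe sets of the calcium genes (colour), all 45077 probe sets (black) and the 22560 at or above the median signal (dashed grey), in each comparison; the dotted line is 1.2-fold. The coloured line runs near the black one for SAMP8 control vs. SAMR1, and it ends at 0.15 for STEE-fed SAMP8 vs. SAMP8 control.

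**Figure D2:**
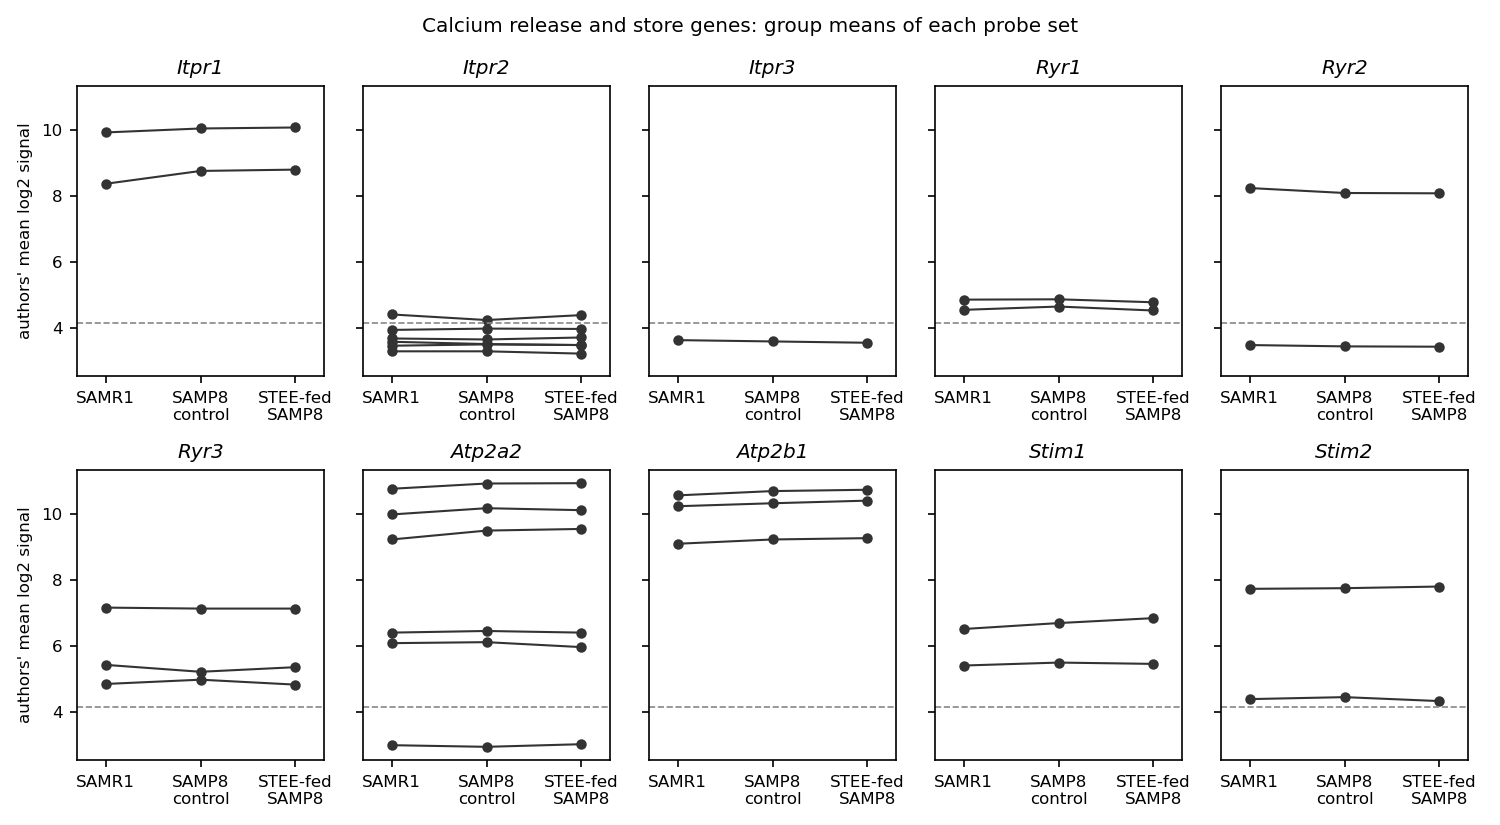
Authors' mean log2 signal (vertical axis) of every probe set of the 10 genes in SAMR1, SAMP8 control and STEE-fed SAMP8, with 1 line per probe set, a dashed line at the median of all probe sets, 4.15, and no error bars since no spread was used. *Itpr1*, *Atp2a2* and *Atp2b1* have probe sets above 9, 5 of the 6 *Itpr2* probe sets and that of *Itpr3* lie below the dashed line, and lines are flat against the range of the axis.

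Among the inositol trisphosphate receptors, *Itpr1* is the main form in neurons, and it was the member with the largest difference. At its probe set 1417279_PM_at the SAMR1 mean log2 signal was 8.37, that of SAMP8 control 8.76 and that of STEE-fed SAMP8 8.80. SAMR1 thus stood below both SAMP8 groups, by 0.39 (1.31-fold) for SAMP8 control and by 0.43 (1.35-fold) for STEE-fed SAMP8. A difference of at least 0.39 in either direction was found for 2.64% of all probe sets. The other and brighter probe set, 1460203_PM_at, read 9.93, 10.05 and 10.08 in the same order. The order of the groups was the same, but the difference between the strains was 0.12, and 32.2% of all probe sets differed by as much. With STEE both probe sets were higher than in SAMP8 control, by 0.04 and 0.03. The size of the strain difference in *Itpr1* therefore depended on the probe set.

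*Itpr2* is the form of astrocytes, and 5 of its 6 probe sets lay below the median signal. The brightest, 1427287_PM_s_at, read 4.40 in SAMR1, 4.23 in the SAMP8 control and 4.38 in STEE-fed SAMP8. SAMP8 control was the lowest of the groups, by -0.17 against SAMR1, and STEE-fed SAMP8 was above it by 0.15. Differences of that size were found for 18.7% and 13.8% of all probe sets in the respective comparison. The SAMP8 control mice are shared by these comparisons, and STEE-fed SAMP8 differed from SAMR1 by -0.02. The other 5 probe sets ran from -0.07 to 0.04 in SAMP8 control vs. SAMR1, and from -0.07 to 0.06 with STEE. Over the 6 probe sets, 2 were higher with STEE and 4 were lower. Both higher ones carry an s suffix, which marks probes shared by several transcripts, and the 4 without a suffix were lower, from -0.07 to -0.01. The direction with STEE thus differed between the suffixed and the other probe sets. *Itpr3*, the form best known from epithelial and secretory cells, had 1 probe set, which read 3.62, 3.58 and 3.54 in SAMR1, SAMP8 control and STEE-fed SAMP8. It lay below the median signal, and its differences were -0.04 in each step.

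The ryanodine receptors had no common direction between the strains or with STEE. In STEE-fed SAMP8 vs. SAMR1 all of their probe sets were lower, from -0.16 to -0.02. *Ryr2*, named for the heart and also abundant in brain, read 8.24 in SAMR1, 8.09 in the SAMP8 control and 8.08 in STEE-fed SAMP8 at 1450123_PM_at. Both SAMP8 groups were below SAMR1, by -0.15 in SAMP8 control, with -0.01 added with STEE. The dim probe set 1421126_PM_at read 3.47, 3.43 and 3.42 and was in the same order. A difference of at least 0.15 was found for 23.2% of all probe sets.

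*Ryr3*, known from hippocampus and striatum among brain regions, had 3 probe sets that did not agree. The brightest, 1427427_PM_at, read 7.16 in SAMR1 and 7.13 in both SAMP8 groups. At 1432133_PM_at the values were 5.42, 5.21 and 5.35, with SAMP8 control the lowest. At 1452533_PM_at they were 4.84, 4.97 and 4.82, with SAMP8 control the highest. The last 2 thus differed by -0.21 and 0.13 between the strains and by 0.14 and -0.15 with STEE. No direction can be given for the gene in these comparisons. Against SAMR1, STEE-fed SAMP8 was lower at each of its probe sets, by -0.07 to -0.02.

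*Ryr1*, the receptor of skeletal muscle, was close to the median signal. Its probe sets read 4.85, 4.86 and 4.77 (1457347_PM_at) and 4.54, 4.64 and 4.52 (1427306_PM_at) in SAMR1, SAMP8 control and STEE-fed SAMP8. Both were lowest in STEE-fed SAMP8, by -0.09 and -0.12 against SAMP8 control. Of the 6 probe sets for 4 skeletal muscle markers, *Acta1*, *Ckm*, *Myh4* and *Mylpf*, 1 was at or above the median signal, and their median differences were 0.04 between the strains and 0.03 with STEE.

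Among the pumps, *Atp2a2*, which encodes the pump that refills the store, had 6 probe sets. In SAMP8 control vs. SAMR1, 5 of the 6 were higher, and the exception, 1443551_PM_at, was brighter than only 17.2% of all probe sets. The 3 brightest differed most. The brightest, 1416551_PM_at, read 10.77 in SAMR1, 10.93 in the SAMP8 control and 10.94 in STEE-fed SAMP8. The one past the threshold, 1452363_PM_a_at, read 9.23, 9.50 and 9.55, which put SAMP8 control above SAMR1 by 0.27 (1.21-fold) and STEE-fed SAMP8 by 0.32 (1.25-fold). The remaining bright one, 1427250_PM_at, differed by 0.19 between the strains and by -0.06 with STEE. SAMR1 was thus the lowest group at these probe sets. The 3 others ran from -0.05 to 0.05 between the strains. With STEE the 6 probe sets ran from -0.15 to 0.08, with 3 higher and 3 lower.

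*Atp2b1*, which encodes a pump of the plasma membrane, had probe sets that all pointed the same way. Its 3 probe sets read 10.57, 10.70 and 10.74 (1428936_PM_at), 10.24, 10.33 and 10.41 (1428937_PM_at), and 9.10, 9.23 and 9.27 (1452969_PM_at) in SAMR1, SAMP8 control and STEE-fed SAMP8. All 3 had the same order of groups, with SAMR1 lowest and STEE-fed SAMP8 highest. SAMP8 control was above SAMR1 by 0.09 to 0.13, and STEE-fed SAMP8 by 0.17 at each probe set. A difference of at least 0.17 was found for 20.3% of all probe sets in STEE-fed SAMP8 vs. SAMR1, so it was not large.

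Bright probe sets in general leaned the same way. Of all 3538 probe sets with a mean log2 signal of 8 or more, 57.5% had a higher value for SAMP8 control than for SAMR1, with a median of 0.03. The 9 such probe sets of the calcium genes, all from *Itpr1*, *Ryr2*, *Atp2a2* and *Atp2b1*, had a median of 0.13, and 8 of the 9 were higher, the exception being *Ryr2*.

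Of the sensors of the store, *Stim1* is the main one in many cells and *Stim2* is the form more abundant in cortical neurons. *Stim1* at 1448320_PM_at read 6.51 in SAMR1, 6.69 in the SAMP8 control and 6.84 in STEE-fed SAMP8. It was higher in both steps, by 0.18 and 0.15, and 16.8% and 13.8% of all probe sets differed as much in the respective comparison. The steps summed to 0.33 (1.26-fold) in STEE-fed SAMP8 vs. SAMR1, where 4.83% of all probe sets differed as much. The other *Stim1* probe set, 1436945_PM_x_at, read 5.40, 5.49 and 5.45, so that it was higher in SAMP8 control by 0.09 and differed by -0.04 with STEE. Its suffix marks probes that can also bind other transcripts. *Stim2* read 7.73, 7.75 and 7.80 at 1434219_PM_at and 4.38, 4.44 and 4.32 at 1441024_PM_at. Between the strains both were higher by 0.06 or less, and with STEE they differed in opposite directions, by 0.05 and -0.12.

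**Figure D3:**
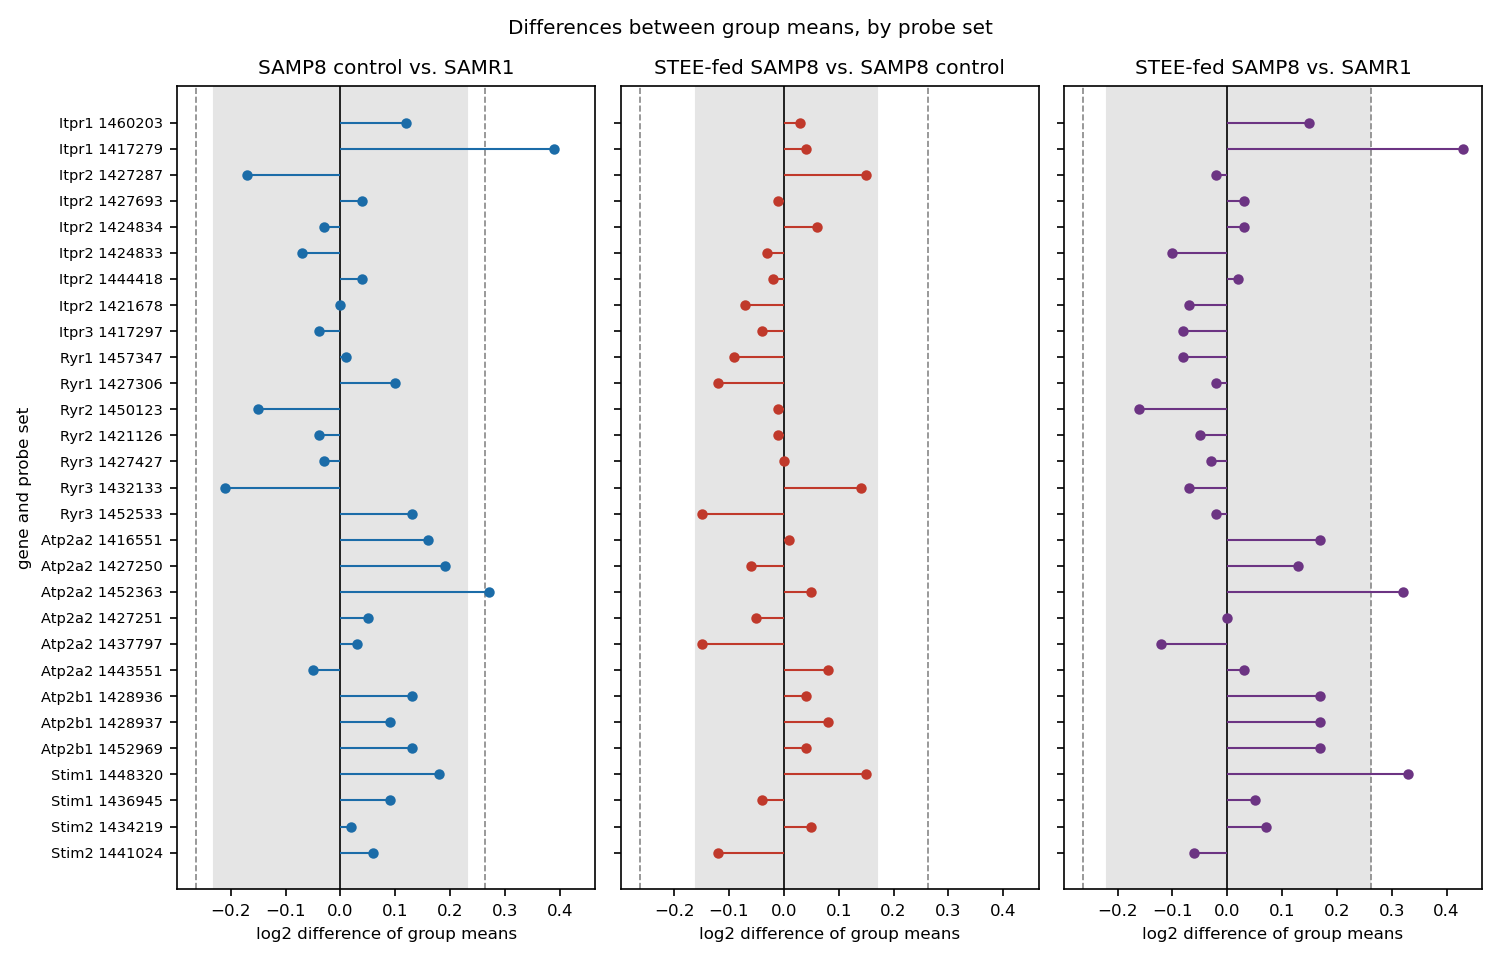
Log2 difference of the authors' group means (horizontal axis) for each of the 29 probe sets (vertical axis, gene and probe set number) in the 3 comparisons; dashed lines mark 1.2-fold, and grey bands span percentiles 5 to 95 of all 45077 probe sets. Only probe sets of *Itpr1*, *Atp2a2* and *Stim1* pass a dashed line, at 0.39 and 0.27 for SAMP8 control vs. SAMR1 and at 0.43, 0.32 and 0.33 for STEE-fed SAMP8 vs. SAMR1.

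Promoter sequences are shown for *Atp2b1* and *Stim1*, among the genes that had only higher probe sets in SAMP8 control vs. SAMR1, and for *Ryr2*, which had only lower ones. They are the 250 bases before the start of the gene in the RefSeq annotation of GRCm38.p6, which listed 7 of the 10 genes. The coordinates are chr10:98914392-98914641 (+ strand) for *Atp2b1*, at the first of its listed starts, chr7:102267569-102267818 (+ strand) for *Stim1* and chr13:12106946-12107195 (- strand) for *Ryr2*. Capitals mark the GC box, GGGCGG, on either strand. The CCAAT box, the TATA box (TATAAA), the cAMP response element (TGACGTCA) and the E-box (CACGTG) were searched on both strands too, and matches may overlap.
Atp2b1: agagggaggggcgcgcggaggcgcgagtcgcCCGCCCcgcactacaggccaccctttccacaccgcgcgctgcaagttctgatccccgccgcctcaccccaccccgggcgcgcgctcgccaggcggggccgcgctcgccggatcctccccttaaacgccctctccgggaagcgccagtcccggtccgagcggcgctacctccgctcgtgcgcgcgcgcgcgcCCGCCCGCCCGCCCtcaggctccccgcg
Stim1: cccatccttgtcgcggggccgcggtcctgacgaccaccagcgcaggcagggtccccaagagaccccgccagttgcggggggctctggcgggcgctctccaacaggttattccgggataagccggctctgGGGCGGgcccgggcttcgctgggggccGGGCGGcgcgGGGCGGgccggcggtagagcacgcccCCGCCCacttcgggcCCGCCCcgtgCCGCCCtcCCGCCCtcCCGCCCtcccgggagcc
Ryr2: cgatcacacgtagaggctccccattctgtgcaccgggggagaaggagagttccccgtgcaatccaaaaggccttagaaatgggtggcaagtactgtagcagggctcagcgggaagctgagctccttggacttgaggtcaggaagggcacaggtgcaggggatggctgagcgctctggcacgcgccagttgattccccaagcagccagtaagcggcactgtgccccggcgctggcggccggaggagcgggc

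The *Stim1* sequence held 8 GC boxes and that of *Atp2b1* held 4, the last 3 of them overlapping. None of the motifs was found in the *Ryr2* sequence. A GC box was present in 32.7% of all 32851 listed promoters at this length, a CCAAT box in 33.8%, a TATA box in 12.4%, a cAMP response element in 1.55% and an E-box in 6.02%. The share of G and C bases was 78.4% for *Atp2b1*, 78.4% for *Stim1* and 63.2% for *Ryr2*, with a median of 52.4% over all promoters. Of the other genes with only higher probe sets, *Ryr1* held 2 GC boxes with 54.8% G and C, and *Stim2* held 3 with 74.8%. *Itpr2*, whose probe sets had no common direction, held 4 with 74.4%. These matches describe the letters in the window, and a link to the differences was not tested.

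Probe sets of a gene are the only repeated readings in these tables, though they share the mice. For 6 of the 9 genes with more than 1 probe set, all probe sets had the same sign in SAMP8 control vs. SAMR1. They were higher for *Itpr1*, *Ryr1*, *Atp2b1*, *Stim1* and *Stim2* and lower for *Ryr2*. Over all 10574 genes with more than 1 probe set, the share was 41.8%, with 21.4% higher and 20.4% lower. With STEE the probe sets of *Itpr1* and *Atp2b1* were all higher and those of *Ryr1* and *Ryr2* all lower than in SAMP8 control, which is 4 of 9 genes with a background of 38.2%, 19.9% higher and 18.3% lower. Without suffixed probe sets it was 5 of 8 genes, since *Itpr2* was then lower throughout. No share of all genes was computed at that setting, so this count has no background. STEE-fed SAMP8 vs. SAMR1, with suffixed probe sets kept, had 6 of 9 such genes. The background was 43.8%, 20.5% higher and 23.3% lower. They were higher for *Itpr1*, *Atp2b1* and *Stim1* and lower for *Ryr1*, *Ryr2* and *Ryr3*. These genes had 2 or 3 probe sets each, and several of the differences were at or under 0.05.

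Other genes of calcium storage and release were read from 9 lists of 100 genes, of which 99 were found. At least 1 probe set past 1.2-fold was found for 13 of the 99 genes in SAMP8 control vs. SAMR1, 9 higher and 4 lower, and the share of all genes was 11.3%, with 6.55% higher and 4.96% lower. With STEE it was 2 of 99, 1 in each direction, and 3.39% of all genes, with 1.86% higher and 1.54% lower. For STEE-fed SAMP8 vs. SAMR1 it was 12 of 99, all higher, and 12.4% of all genes, with 8.01% higher and 4.59% lower.

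Proteins that bind calcium or fold proteins inside the store made up the list with the largest median of the 9 between the strains. For its 12 genes the median over 26 probe sets was 0.13 between the strains, 0.01 with STEE and 0.14 for STEE-fed SAMP8 vs. SAMR1, while the whole array had 0.00, 0.00 and -0.01. In SAMP8 control vs. SAMR1, 5 of the 12 genes had a probe set past 1.2-fold, all higher, namely *Pdia6*, *Hspa5*, *Canx*, *Hsp90b1* and *Calr*. Of all genes, 6.55% had one in that direction and 11.3% in either direction. But 22 of the 26 probe sets were at or above the median signal. With only such probe sets, 16.5% of all genes had one in either direction. *Pdia6*, a disulfide isomerase, read 6.13 in SAMR1, 6.79 in the SAMP8 control and 6.81 in STEE-fed SAMP8 at its brighter probe set. *Hspa5*, the chaperone BiP, read 8.00, 8.52 and 8.51 at 1427464_PM_s_at and 8.67, 9.14 and 9.00 at 1416064_PM_a_at. Its other probe set differed by 0.02 between the strains. *Canx*, the lectin chaperone calnexin, read 7.76, 8.14 and 8.17 at 1422845_PM_at, while its other 2 probe sets differed by 0.13 and 0.07 between the strains. Beyond these 3 genes, *Calr* and *Hsp90b1* are named after their values were seen. *Calr*, calreticulin, the main calcium buffer of the store, had 3 probe sets that were higher in SAMP8 control by 0.21 to 0.28. *Hsp90b1* was higher by 0.31 and 0.25 at its 2 probe sets. SAMR1 was the lowest group at each of the probe sets given here with 3 values.

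**Figure D4:**
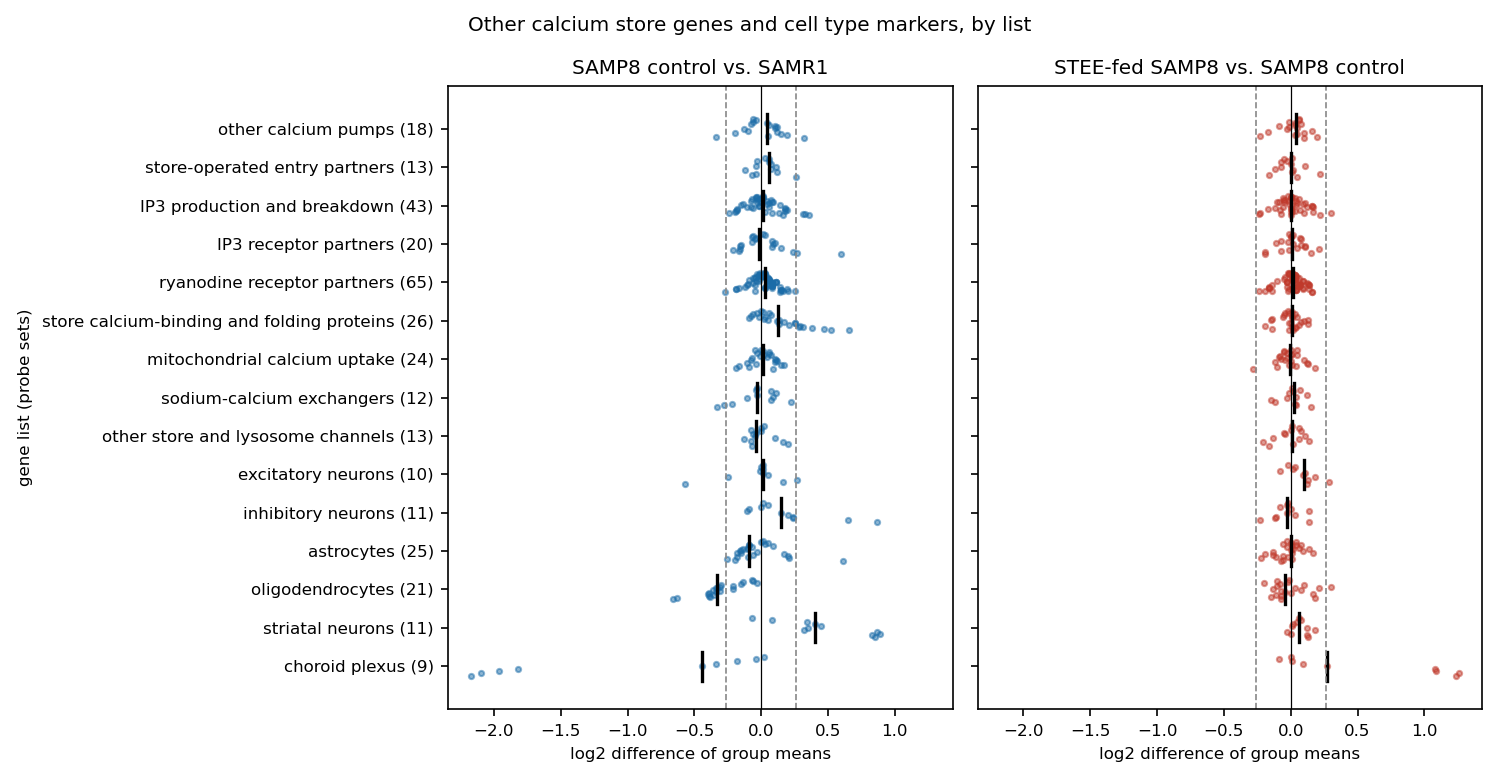
Log2 difference of the authors' group means (horizontal axis) for each probe set of the 9 lists of other calcium genes and of 6 lists of cell type markers (vertical axis, number of probe sets in brackets), with black bars at the median of a list and dashed lines at 1.2-fold. The store calcium-binding and folding proteins have a median of 0.13 between the strains, while the striatal, oligodendrocyte and choroid plexus markers lie at 0.40, -0.33 and -0.44.

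In the list of other calcium pumps, *Atp2b2*, a plasma membrane pump of neurons, read 7.40, 7.72 and 7.82 in SAMR1, SAMP8 control and STEE-fed SAMP8. This was its dimmest probe set, and the brighter ones differed by 0.19 and 0.15 between the strains. *Atp2c1*, a pump of the Golgi apparatus, read 6.33, 5.99 and 6.19 at 1439215_PM_at, with SAMP8 control the lowest. Its brightest probe set read 8.13, 8.23 and 8.28, with SAMR1 the lowest, and its 5 probe sets ran from -0.34 to 0.12 between the strains. No other gene of the 8 in the list was past 1.2-fold. The partners of store-operated entry held *Orai1*, *Orai2* and *Orai3*, the channels that the *Stim* proteins open. None of 9 genes was past the threshold between the strains or with STEE. Against SAMR1, STEE-fed SAMP8 had 1, *Trpc1* at a dim probe set with 0.31, named here after its values were seen. Between the strains the same probe set differed by 0.26, just under the threshold before rounding.

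In the list of genes that make and break down inositol trisphosphate, *Plcb1*, a phospholipase C of cortical neurons, had 3 probe sets past 1.2-fold in SAMP8 control vs. SAMR1. The brightest of these read 9.16 in SAMR1 and 9.52 in both SAMP8 groups. The other *Plcb1* probe sets differed by 0.07 and -0.06 between the strains. *Gnaq*, the G protein that activates this enzyme, read 4.58, 4.74 and 4.96 at 1450115_PM_at, while its other probe sets ran from -0.04 to 0.09 between the strains. *Plcd3*, another phospholipase C, read 4.88, 4.64 and 4.94 and was the only gene of the 9 lists past 1.2-fold in the higher direction with STEE, by 0.30. Of the 18 genes, 1 was past the threshold between the strains.

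Among the partners of the inositol trisphosphate receptors, *Tmem203*, a protein of the store membrane, read 4.97, 5.57 and 5.38, and *Ahcyl1*, which binds the receptor and restrains it, read 6.31, 6.58 and 6.73. Both were lowest in SAMR1, but the 2 brighter probe sets of *Ahcyl1* differed by 0.09 and -0.04 between the strains. Among the partners of the ryanodine receptors, *Asph* read 5.79, 5.52 and 5.68 at 1425274_PM_at, with others of its probe sets from -0.19 to 0.25 between the strains. *Jph3*, which holds the store close to the plasma membrane, read 4.98, 5.12 and 5.28 at its dimmer probe set. The brighter *Jph3* probe set read 8.04, 8.06 and 8.09. Both exchanger genes past the threshold were lower in SAMP8 control at the probe set concerned. *Slc24a2* read 9.33, 9.05 and 9.09 there, and its other probe set differed by -0.22 between the strains. *Slc8a1* read 7.46, 7.13 and 7.28 at 1440201_PM_at, while its brighter probe set read 7.95, 8.02 and 8.04, a difference of 0.07. The list of other store and lysosome channels held no gene past 1.2-fold in any of the 3 comparisons.

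Cell type markers differed between the groups as well. Markers of excitatory neurons, among them *Slc17a7*, *Camk2a*, *Neurod6* and *Tbr1*, fitted the labelled cortex, with 8 of 10 probe sets at or above the median signal, and their median differences were 0.01 between the strains and 0.10 with STEE. Markers of striatal neurons, which lie beneath the cortex and are rich in *Itpr1*, were higher in SAMP8 control at 9 of 11 probe sets past 1.2-fold, for all 6 genes, with a median of 0.40. The sum of their linear signals, with the brightest probe set of each gene, was 924 in SAMR1, 1479 in the SAMP8 control and 1554 in STEE-fed SAMP8. *Drd1a*, the dopamine receptor D1, read 6.55, 7.40 and 7.53 at 1455629_PM_at. The part of the striatal markers in the *Itpr1* and *Atp2a2* differences was not tested.

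Oligodendrocyte markers were lower in SAMP8 control at 14 of 21 probe sets past 1.2-fold, for 5 of 6 genes, with a median of -0.33 and sums of 10172, 8925 and 8653 in SAMR1, SAMP8 control and STEE-fed SAMP8. *Mbp*, a protein of myelin, read 10.85, 10.19 and 10.12 at 1419646_PM_a_at. At 1425264_PM_s_at it read 7.24, 6.93 and 7.23, the only oligodendrocyte probe set past 1.2-fold with STEE, by 0.30. The other *Mbp* probe sets ran from -0.15 to 0.08 with STEE. Choroid plexus markers had a median of -0.44 between the strains and 0.27 with STEE, with sums of 1236, 357 and 698. *Ttr*, which differed most among them, read 9.64, 7.47 and 8.71 at 1455913_PM_x_at, and it held 4 of the 9 probe sets and the largest part of the sums. The other 5 probe sets, of *Clic6*, *Kl* and *Folr1*, ran from -0.44 to 0.02 between the strains and from -0.09 to 0.27 with STEE. Both list medians are those of the *Clic6* probe set 1454866_PM_s_at, while the sums describe *Ttr* more than the other genes. Markers of hippocampal granule cells were below the median signal at all 10 probe sets. Between the strains 3 of their 4 genes were past 1.2-fold lower, at 4 probe sets, with a median of -0.16 and sums of 51, 41 and 39, and their part in the *Ryr3* values was not tested. Astrocyte markers, the cells in which *Itpr2* is best known, had a median of -0.09 between the strains and 0.00 with STEE, over 25 probe sets. Their sums were 5106, 4895 and 4929. No marker was at 0, since the lowest mean log2 signal of any probe set was 2.03. The part of these markers in the differences of the calcium genes was not tested.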

How the data were processed

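Cortical RNA was amplified, labelled with biotin and read on Affymetrix mouse array strips, with 6 mice in all. Background correction, normalization and summary by probe set were done by RMA, as run by the authors in Expression Console, and Transcriptome Analysis Console served for their group comparisons. The deposited values used here are on the log2 scale. Each is the bi-weight average of a probe set over the mice of a group, rounded to 2 decimals. The genome build of their probe annotation is not given in the sources used here. The SAMP8 control averages in both tables were identical.

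The tables also hold linear fold changes, ANOVA p-values and FDR p-values of the authors' own comparisons, and these columns were not used. Values per mouse were not analysed here, so no test was run and no error is given. Precision is limited by how few arrays there were, 2 in each group.

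The members and gene lists were chosen with earlier results of these data known. Differences were taken between log2 averages and called at 1.2-fold. Every member is named. Members with more than 5 probe sets are given by their brightest probe set, those past the threshold and the range. From each list, up to 3 genes past the threshold and at or above the median signal are named, and the values of some list genes are not reported here. A marker list is described where its median differed by 0.2 or more in any comparison or where it bears on a member. List names were matched to the tables by symbol, 6 of them through older names in the RefSeq table. The calculations were tested on simulated data and run in Python 3.11.15 with numpy 2.4.6, pandas 2.3.3 and matplotlib 3.10.9. Alternatives changed the threshold, centring, signal filter, use of suffixed probe sets and choice of probe set.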

Additional observations from a re-analysis of the deposited data

How the results depend on the processing

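No paired analysis was possible because the tables hold only group averages, and for the same reason no mouse could be left out. Of 60 values under another setting, 38 kept within the limits set for them and 22 moved, and the cause was not tested except where fewer probe sets or another threshold is the setting itself. At 1.1-fold the calcium genes had 8, 5 and 9 probe sets past the threshold for SAMP8 control vs. SAMR1, STEE-fed SAMP8 vs. SAMP8 control and STEE-fed SAMP8 vs. SAMR1. At 1.5-fold the count was 0 between the strains and 0 for STEE-fed SAMP8 vs. SAMR1. Between the strains the count was 1 without suffixed probe sets, which removes that of *Atp2a2*, 0 with the brightest probe set of each gene and 0 with the mean over its probe sets. In STEE-fed SAMP8 vs. SAMR1 the count was 1 of 10 with the brightest probe set (7.37% of all genes) and 1 of 10 with the mean (5.67%). The median difference between the strains was 0.09 at or above the median signal and 0.01 with the brightest probe set. With STEE the median was 0.02 with the brightest probe set, which turns its sign. In STEE-fed SAMP8 vs. SAMR1 it was 0.05 at or above the median signal and -0.01 with the gene mean, which turns its sign too. For the other calcium genes, the counts at 1.1-fold were 47, 36 and 50 of 99 (47.5%, 36.4% and 50.5%) in the same order. The shares of all genes were lower there, at 36.1%, 25.0% and 37.7%. At 1.2-fold with only probe sets at or above the median signal, the counts were 13, 2 and 11 of 85 (15.3%, 2.35% and 12.9%). The shares of all genes were higher at that setting, at 16.5%, 4.36% and 18.3%. At 1.5-fold the counts were 2, 0 and 1, and the shares of all genes were 1.66%, 0.173% and 1.93%. With STEE the count was 1 of 86 without suffixed probe sets, where it was 2.85% of all genes. Such shares also depend on the number of probe sets per gene.

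The averages are rounded to 2 decimals, so that a difference can be off by 0.01, and *Atp2a2* at 0.27 lies that close to the threshold. No spread between mice was used, so the differences in the calcium genes were not set against it here.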
